A study of Homo sapiens with 6 samples.

Results

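Macroautophagy is the route by which a cell encloses its own cytoplasm in a double membrane, the autophagosome, and delivers it to lysosomes. A kinase complex and a lipid kinase complex start the membrane, 2 ubiquitin-like conjugation systems attach ATG8 proteins to it, and receptors that bind both ATG8 proteins and cargo choose what is enclosed. In liver the pathway clears damaged organelles, protein aggregates and lipid droplets, and the receptor p62 is a constituent of the aggregates known from diseased hepatocytes. The genes described here are 41 genes of this machinery, its receptors, the transcription factors of the MiT/TFE family that drive lysosomal and autophagy genes, and the lysosomal membrane proteins LAMP1 and LAMP2. They were taken as a named list and matched by symbol to the gene identifiers of the count tables, and all 41 were found among 60483 genes.

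Total RNA was sequenced from the established human hepatocellular carcinoma line HepG2 at passages 16 to 19. There were 3 libraries after transfection with an siRNA against FTO and 3 after transfection with a control siRNA. The FTO protein demethylates N6-methyladenosine in RNA. In human cells and mouse preadipocytes it has been tied to autophagy through the methylation of ULK1, ATG5 and ATG7 transcripts, and the comparison asks which genes depend on it in this cancer line. The sources used here do not give the siRNA sequences, their dose or the time of harvest. Whether the 3 libraries of a group are separate cultures is not in the labels either, so the p-values measure a spread that may be technical.

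FTO itself (ENSG00000140718.17, chromosome 16) had 11.2, 14.45 and 5.21 CPM (counts scaled to library size, with TMM factors) in FTO siRNA libraries 1, 2 and 3, against 40.8, 37.96 and 38.8 CPM in control siRNA libraries 1, 2 and 3. It fell by 1.93 ± 0.32 (SE) on the log2 scale, with an adjusted p of 0.00932 by edgeR's quasi-likelihood test, and was lowest in FTO siRNA 3. That library stood apart. On the principal component that carried 25.7% of the variance it lay at -52.7, against 40.1 and 22.7 for the other FTO siRNA libraries. Total counts were 15713279 to 18390953 per library, so 3 counts correspond to 0.153 to 0.19 CPM after TMM scaling, a floor that covers counting error only. All 10 hepatocyte-lineage markers were detected, with summed levels of 15810 to 27930 CPM after FTO siRNA and 23070 to 33050 CPM after control siRNA, and 0 passed the edgeR test (1 was lower at an unadjusted p under 0.05; DESeq2 and limma-voom each called 1 lower). All 10 log2 fold changes were negative, with a median of -0.30. Without FTO siRNA 3 edgeR called 5 of the 10 lower, against 14.1% of all genes. APOB fell most, with 1405, 2381 and 4062 CPM after FTO siRNA and 8180, 7419 and 5071 CPM after control siRNA (edgeR adjusted p = 0.065). APOB and HNF4A lay wholly below the controls, as did 17.4% of all tested genes. Of the immune cell markers 6 of 8 tested rose, where 7.53% of all tested genes did. The summed level over all 12 was 80.2 to 114.0 CPM after FTO siRNA against 51.6 to 101.9 CPM after control siRNA. Of these 6, 5 passed the filter on low counts only through the FTO siRNA libraries, so they had to be high there, and CD74 was the other. LYZ made up most of the sum, and MS4A1 and TYROBP were at 0 in every control. Of the fibroblast markers 2 of 5 tested rose, against the same 7.53% of all tested genes. The summed level over all 8 was 128 to 158 CPM after FTO siRNA against 65.45 to 98.6 CPM after control siRNA. DCN, FAP and THY1 were at 0 in every control. The 5 endothelial markers summed to 14.9 to 23.7 CPM after FTO siRNA and 20.35 to 25.5 CPM after control siRNA. VWF, KDR and TEK were at 0 in every control. KDR was also at 0 in every FTO siRNA library, and VWF and TEK had only 9 and 4 counts over those libraries. The part of these markers in the results below was not tested, and in bulk RNA fewer cells of a type and less RNA per cell cannot be told apart.

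Of the 41 genes 40 passed the filter on low counts, and 7 of them rose after FTO siRNA: GABARAPL1, MAP1LC3A, OPTN, ATG14, ATG101, SQSTM1 and MAP1LC3B. The share of all 15025 tested genes called higher was 7.53%, and the share called lower was 3.83%. By edgeR 0 of the 40 were called lower, with 2 lower at an unadjusted p under 0.05 (PIK3R4 and ATG4C); DESeq2 called 1 lower and limma-voom 0. MAP1LC3A and ULK2 did not reach the filter's minimum of 0.602 CPM in 3 libraries through the controls, and passed through the FTO siRNA libraries, so the call of MAP1LC3A is no support for the count; without it 6 of 39 rose. The FTO siRNA libraries lay wholly above the controls for 14 genes and wholly below them for 3 (PIK3R4, ATG2A and ATG4C), against 19.2% and 17.4% of all tested genes. MAP1LC3A is among the 14 and is no support for that count either, which was 13 without it. The log2 fold changes ran from -0.56 for ATG4C to 2.09 for MAP1LC3A with a median of 0.21, against a median of 0.04 over all tested genes. Of these fold changes 32 were positive and 8 negative, where 53.5% of all tested genes were positive. MAP1LC3A and ULK2 are among the 32 and are no support for that count. Without MAP1LC3A 31 were positive. With no filter on low counts the order of the medians turned, at 0.16 for the autophagy genes against 0.18 over all 33571 genes tested. Set against the mean of the controls, the median log2 difference of the genes was 0.23, 0.12 and 0.13 in FTO siRNA libraries 1, 2 and 3, with an SD of 0.058 between them.

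**Figure D1:**
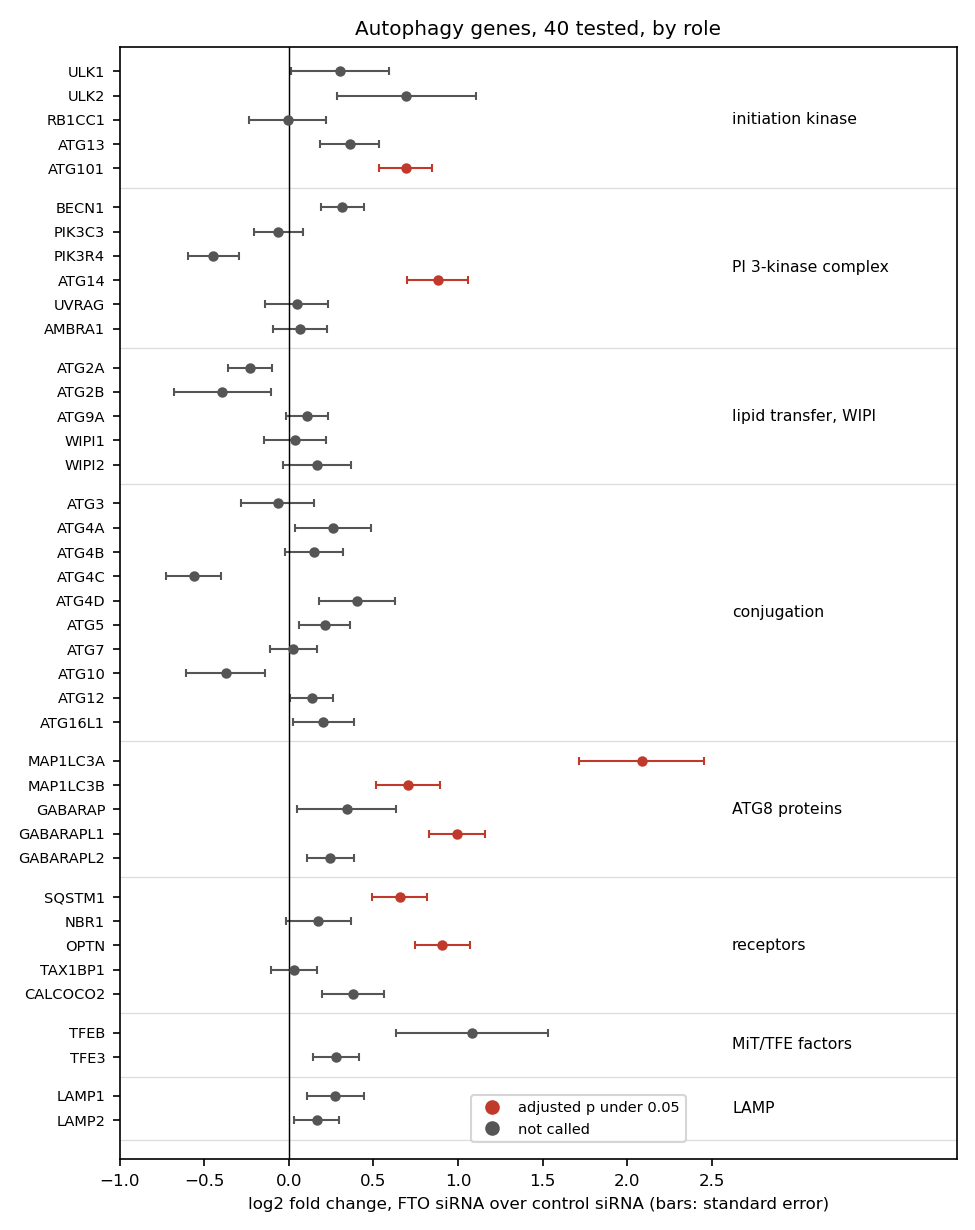
Log2 fold change (FTO siRNA over control siRNA, horizontal axis) of the 40 tested autophagy genes, grouped by role, with bars for the standard error; red points have an adjusted p under 0.05. The 7 red points lie between 0.66 and 2.09, and the conjugation genes, the lipid transfer genes, the MiT/TFE factors and the LAMP genes hold none.

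**Figure D2:**
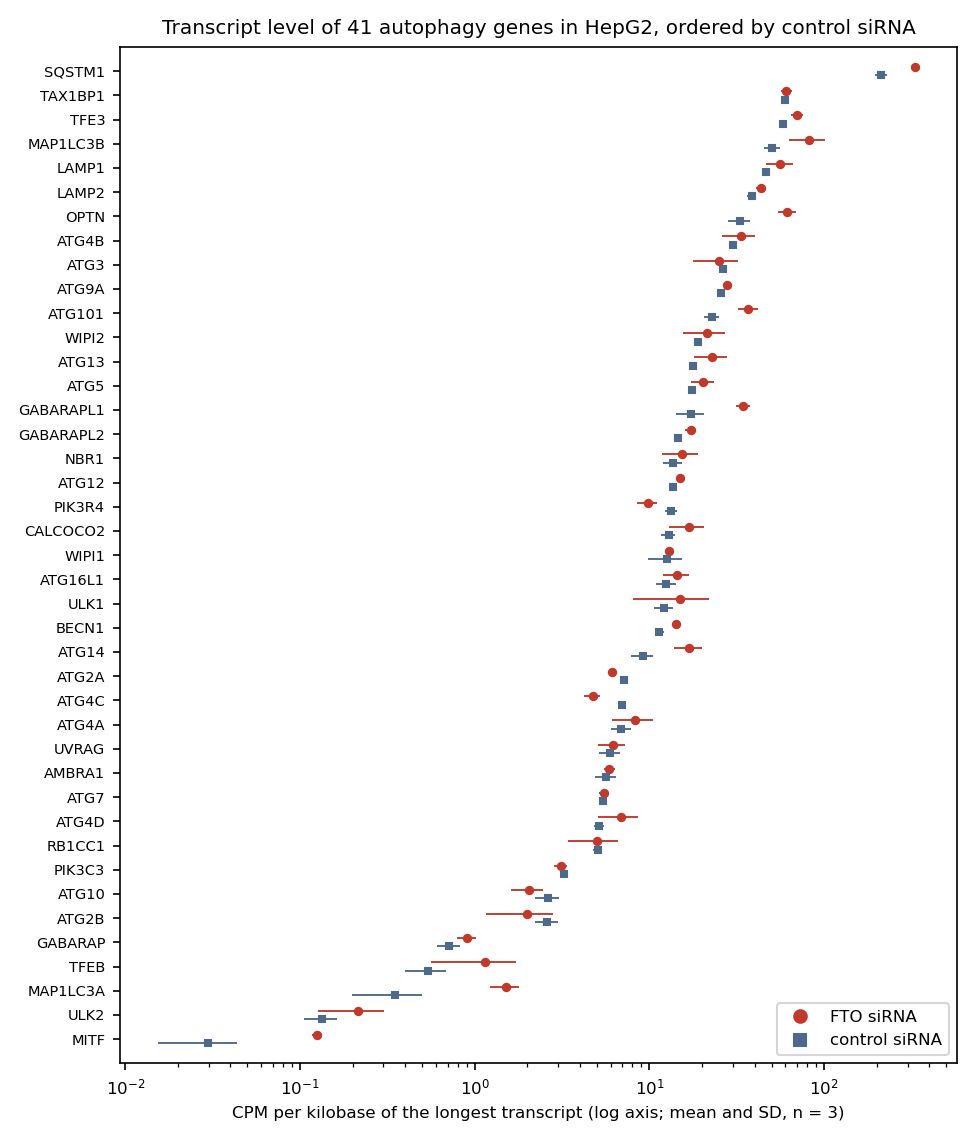
Mean level (points) and SD (bars, n = 3) of each of the 41 autophagy genes in CPM per kb of its longest transcript, on a log axis, after FTO siRNA and control siRNA, ordered by the control level. SQSTM1 stands highest in both groups, at 333 after FTO siRNA and 211 after control siRNA, and MITF lowest.

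Per kb of longest transcript, SQSTM1 was the most abundant of the 41, at 333 ± 15.8 CPM per kb after FTO siRNA and 211 ± 16.7 CPM per kb after control siRNA (SD, n = 3 each). Next in the controls came TAX1BP1 (59.3 ± 3.0), TFE3 (57.8 ± 2.19), MAP1LC3B (50.5 ± 5.06) and LAMP1 (46.5 ± 2.33) CPM per kb. TAX1BP1 and TFE3 did not differ beyond their spread, nor did MAP1LC3B and LAMP1. After FTO siRNA MAP1LC3B (82.2 ± 19.4) and TFE3 (70.2 ± 5.61) followed SQSTM1. The lowest listed levels in control cells were those of MITF (0.0296), ULK2 (0.133), MAP1LC3A (0.3499), TFEB (0.543) and GABARAP (0.715 CPM per kb). The level of GABARAP is uncertain, because 55.7% of its exon bases overlap other annotated genes.

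MiT/TFE factors, NRF2 and ATF4 are known regulators of autophagy genes, and the promoters were searched for the letters they recognise. Windows around the annotated start were available in RefSeq (GRCh38.p14) for 36 of the 41. The E-box core CACGTG, which MiT/TFE factors recognise, occurs in 7.26% of 35116 promoter windows of all genes and in those of ATG3, ATG14 and LAMP1. The longer palindrome TCACGTGA, which contains that core, occurs in 0.98% of windows and in those of ATG3 and LAMP1. The full CLEAR palindrome, a longer form of the same element, occurs in 0.353% of windows and in 0 of the members' windows. The antioxidant response core TGACNNNGC, which NRF2 recognises, occurs in 13.3% of windows and in those of ATG101, CALCOCO2, LAMP1 and MAP1LC3B. The cAMP response element TGACGTCA, searched after the GABARAPL1 sequence was seen, occurs in 1.85% of windows and in those of GABARAPL1 and MITF. The ATF4 element TGATGCAA occurs in 0.866% of windows and in 0 of the members' windows. Of the 48 windows of the members, 6.25% hold CACGTG, 4.17% TCACGTGA, 8.33% TGACNNNGC and 4.17% TGACGTCA. Both strands were searched, and a match is a description of the letters only. The window of LAMP1 holds 6 copies of CACGTG and is the only 1 of the 35116 with 6 or more; it is shown for that, and the others because the gene rose. Capitals mark the motif: CACGTG in LAMP1 and ATG14, TGACGTCA in GABARAPL1 and TGACNNNGC in MAP1LC3B. The windows are chr13:113296989-113297288 on the plus strand (LAMP1), chr14:55411781-55412080 on the minus strand (ATG14), chr12:10212627-10212926 on the plus strand (GABARAPL1) and chr16:87392086-87392385 on the plus strand (MAP1LC3B), each of 300 bases, 5′ to 3′.
LAMP1: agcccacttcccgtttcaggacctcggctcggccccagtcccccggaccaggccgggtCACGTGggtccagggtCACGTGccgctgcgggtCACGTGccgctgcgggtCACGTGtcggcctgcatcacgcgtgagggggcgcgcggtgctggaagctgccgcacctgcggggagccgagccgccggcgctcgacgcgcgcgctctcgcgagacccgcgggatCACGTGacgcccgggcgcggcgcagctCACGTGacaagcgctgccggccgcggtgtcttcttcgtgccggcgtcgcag
ATG14: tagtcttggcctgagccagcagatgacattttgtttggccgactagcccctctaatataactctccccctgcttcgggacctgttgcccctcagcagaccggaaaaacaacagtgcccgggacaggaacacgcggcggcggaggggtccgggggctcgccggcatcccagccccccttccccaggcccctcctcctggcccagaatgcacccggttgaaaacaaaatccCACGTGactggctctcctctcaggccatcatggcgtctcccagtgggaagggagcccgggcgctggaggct
GABARAPL1: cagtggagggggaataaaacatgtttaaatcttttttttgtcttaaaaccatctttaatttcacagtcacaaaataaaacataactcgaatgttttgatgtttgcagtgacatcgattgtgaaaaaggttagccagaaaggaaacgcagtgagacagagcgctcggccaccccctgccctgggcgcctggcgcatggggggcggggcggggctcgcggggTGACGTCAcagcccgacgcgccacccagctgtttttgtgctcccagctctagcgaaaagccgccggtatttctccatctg
MAP1LC3B: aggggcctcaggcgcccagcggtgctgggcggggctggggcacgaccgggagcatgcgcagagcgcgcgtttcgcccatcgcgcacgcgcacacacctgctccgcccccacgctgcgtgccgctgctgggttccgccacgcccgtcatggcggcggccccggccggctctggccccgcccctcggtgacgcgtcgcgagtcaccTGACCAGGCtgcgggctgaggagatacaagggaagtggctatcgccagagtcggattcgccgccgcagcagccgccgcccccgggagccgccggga

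Of the 5 genes of the initiation kinase complex, ATG101 rose, where 7.53% of all tested genes did. This subunit (ENSG00000123395.13, chromosome 12) stabilises ATG13 in the complex. Its levels were 60.4, 46.8 and 51.7 CPM in FTO siRNA libraries, against 31.9, 29.98 and 36.5 CPM in control siRNA libraries, without overlap. The log2 fold change was 0.69 ± 0.16 (SE; edgeR adjusted p = 0.0282). ULK1, the kinase that opens autophagy, had 64.5, 52.9 and 122.0 CPM after FTO siRNA and 73.7, 61.8 and 58.6 CPM after control siRNA. Its high value was in FTO siRNA 3 and the groups overlapped (log2 fold change 0.30 ± 0.29, edgeR adjusted p = 0.538). ATG13, the regulatory subunit, had 90.7, 83.5 and 124.0 CPM after FTO siRNA and 79.7, 79.9 and 73.05 CPM after control siRNA; the groups did not overlap, but the difference did not pass (edgeR adjusted p = 0.220). RB1CC1, the scaffold FIP200, averaged 33.45 ± 10.7 CPM after FTO siRNA and 33.7 ± 2.06 CPM after control siRNA (SD, n = 3 each; log2 fold change -0.01). ULK2, a second form of the kinase, had 0.682, 1.54 and 1.64 CPM after FTO siRNA and 0.887, 0.914 and 0.604 CPM after control siRNA, and the groups overlapped.

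In the class III phosphatidylinositol 3-kinase complex, which makes the lipid that marks the growing membrane, ATG14 rose. ATG14 (ENSG00000126775.8, chromosome 14) is the subunit that directs the complex to sites of autophagosome formation, and its promoter window is the one shown above with 1 E-box. It had 70.7, 72.7 and 97.1 CPM in FTO siRNA libraries, against 37.9, 42.5 and 50.3 CPM in control siRNA libraries. Every FTO siRNA library lay above every control, and the mean was 80.2 ± 14.7 CPM after FTO siRNA against 43.6 ± 6.27 CPM after control siRNA (SD, n = 3 each; fold change 1.84, log2 fold change 0.88 ± 0.18, edgeR adjusted p = 0.0189). UVRAG, which takes the place of ATG14 in the endosomal form of the complex, averaged 25.35 ± 4.47 CPM after FTO siRNA and 24.5 ± 3.29 CPM after control siRNA (log2 fold change 0.05 ± 0.19). The catalytic subunit PIK3C3 was at 29.3 ± 2.38 CPM after FTO siRNA and 30.6 ± 1.57 CPM after control siRNA. AMBRA1, a Beclin-binding scaffold, was at 31.55 ± 2.24 CPM after FTO siRNA and 30.2 ± 4.09 CPM after control siRNA. PIK3R4, the regulatory kinase of the complex, had 44.4, 56.15 and 46.3 CPM after FTO siRNA and 73.05, 64.2 and 63.1 CPM after control siRNA. Its groups did not overlap, and it did not pass the test (log2 fold change -0.45 ± 0.15, edgeR adjusted p = 0.0911). BECN1, which scaffolds both forms, had 70.4, 66.65 and 69.7 CPM after FTO siRNA and 52.4, 54.8 and 58.8 CPM after control siRNA, also without overlap and without passing (log2 fold change 0.32 ± 0.13, edgeR adjusted p = 0.151).

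None of the 5 lipid transfer proteins and phosphoinositide effectors passed, and their median log2 fold change was 0.04. By edgeR, DESeq2 and limma-voom 0 of the 5 were called, with 0 at an unadjusted p under 0.05. ATG2A and ATG2B, which carry lipid to the growing membrane, averaged 38.9 ± 1.51 and 27.1 ± 11.25 CPM after FTO siRNA, against 45.6 ± 2.07 and 35.7 ± 5.26 CPM after control siRNA (SD, n = 3 each). The lipid scramblase ATG9A was at 111.3 ± 5.0 CPM after FTO siRNA and 103.3 ± 2.59 CPM after control siRNA, and 38.8% of its exon bases overlap another gene on the same strand. WIPI1, a relative of WIPI2, was at 24.5 ± 0.359 CPM after FTO siRNA and 23.9 ± 5.23 CPM after control siRNA. WIPI2, which brings the conjugation machinery to the membrane, had 116.1, 102.9 and 67.0 CPM after FTO siRNA and 85.3, 84.8 and 84.6 CPM after control siRNA. FTO siRNA 3 was the lowest of the 6 libraries and the other 2 were the highest.

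The 10 conjugation genes had a median log2 fold change of 0.14, with 0 called in either direction by edgeR (1 lower at an unadjusted p under 0.05; DESeq2 called 1 lower and limma-voom 0). That 1 is ATG4C (ENSG00000125703.13, chromosome 1), a protease that trims ATG8 proteins. It had 12.6, 15.4 and 13.5 CPM in FTO siRNA libraries, against 19.3, 20.6 and 21.55 CPM in control siRNA libraries, and the groups did not overlap. Its log2 fold change was -0.56 ± 0.16 (edgeR adjusted p = 0.0588). ATG5, part of the complex that attaches ATG8 proteins to lipid, had 66.4, 55.03 and 74.9 CPM after FTO siRNA and 54.6, 58.3 and 56.7 CPM after control siRNA (edgeR adjusted p = 0.404). ATG7, the activating enzyme of both conjugation systems, had 26.1, 29.15 and 26.5 CPM after FTO siRNA and 26.7, 26.8 and 26.6 CPM after control siRNA. Its log2 fold change was 0.03 ± 0.14. The groups overlapped for ATG5 and for ATG7, and neither difference passed. ATG3, the conjugating enzyme, had 89.98, 85.98 and 50.5 CPM after FTO siRNA and 82.6, 76.2 and 78.3 CPM after control siRNA, with FTO siRNA 3 the lowest library. The log2 fold changes of the other 6 (ATG4A, ATG4B, ATG4D, ATG10, ATG12 and ATG16L1) ran from -0.37 for ATG10 to 0.40 for ATG4D.

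Among the ATG8 proteins, the small proteins that coat the membrane and bind receptors, 3 of 5 rose, where 7.53% of all tested genes did. In 4 of 5 the FTO siRNA libraries lay wholly above the controls, against 19.2% of all tested genes. MAP1LC3A is in both counts but passed the filter only through the FTO siRNA libraries, so it is no support for either. GABARAPL1 (ENSG00000139112.9, chromosome 12) had 122.7, 104.3 and 105.1 CPM in FTO siRNA libraries, against 48.85, 50.6 and 67.2 CPM in control siRNA libraries. The lowest FTO siRNA library was above the highest control, and the mean was 111 ± 10.4 CPM after FTO siRNA against 55.5 ± 10.1 CPM after control siRNA (SD, n = 3 each; fold change 1.99, log2 fold change 0.99 ± 0.17, edgeR adjusted p = 0.0101). MAP1LC3B (ENSG00000140941.11, chromosome 16), the LC3 form most used as a marker of autophagosomes, had 227, 212 and 322 CPM in FTO siRNA libraries, against 138, 161 and 168 CPM in control siRNA libraries. FTO siRNA 3 was the highest, and the log2 fold change was 0.70 ± 0.19 (edgeR adjusted p = 0.0490). MAP1LC3A (ENSG00000101460.11, chromosome 20), another LC3 form, was scarce, with 123 counts over the FTO siRNA libraries and 27 over the controls. It had 2.85, 1.98 and 2.30 CPM in FTO siRNA libraries, against 0.317, 0.792 and 0.543 CPM in control siRNA libraries. The fold change was 4.25 and the log2 fold change 2.09 ± 0.37 (edgeR adjusted p = 0.0117). GABARAPL2 had 41.8, 39.8 and 35.97 CPM after FTO siRNA and 34.1, 32.3 and 32.8 CPM after control siRNA, without overlap and without passing (log2 fold change 0.25 ± 0.14, edgeR adjusted p = 0.283). GABARAP, listed at only 1.67, 1.30 and 1.48 CPM after FTO siRNA and 1.204, 0.975 and 1.33 CPM after control siRNA, shares 55.7% of its exon bases with other annotated genes, and its values are uncertain; AC120057.2, which lies over it on the same strand, was listed at 0 in every library.

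Of the 5 cargo receptors, which join ubiquitinated cargo to ATG8 proteins, SQSTM1 and OPTN rose, where 7.53% of all tested genes did. SQSTM1 (ENSG00000161011.18, chromosome 5) encodes p62, which also binds KEAP1, the inhibitor of the antioxidant factor NRF2. It had 1032, 1009 and 941 CPM in FTO siRNA libraries, against 646, 576 and 672 CPM in control siRNA libraries. The groups were far apart relative to their spread, at 994 ± 47.2 CPM after FTO siRNA against 631 ± 49.9 CPM after control siRNA (SD, n = 3 each; log2 fold change 0.66 ± 0.16, edgeR adjusted p = 0.0375). OPTN (ENSG00000123240.15, chromosome 10), optineurin, serves in the removal of mitochondria and bacteria. It had 225, 188 and 237 CPM in FTO siRNA libraries, against 100.5, 113.0 and 133 CPM in control siRNA libraries, a fold change of 1.88 without overlap (log2 fold change 0.91 ± 0.16, edgeR adjusted p = 0.0122). CALCOCO2, or NDP52, had 57.1, 50.8 and 77.15 CPM after FTO siRNA and 51.1, 48.6 and 42.7 CPM after control siRNA. FTO siRNA 3 was the highest, 1 of the other FTO siRNA libraries lay below the highest control, and the gene did not pass (edgeR adjusted p = 0.220). NBR1 averaged 71.8 ± 16.7 CPM after FTO siRNA and 63.7 ± 8.14 CPM after control siRNA. TAX1BP1 averaged 243.9 ± 17.7 CPM after FTO siRNA and 238.5 ± 12.1 CPM after control siRNA.

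**Figure D3:**
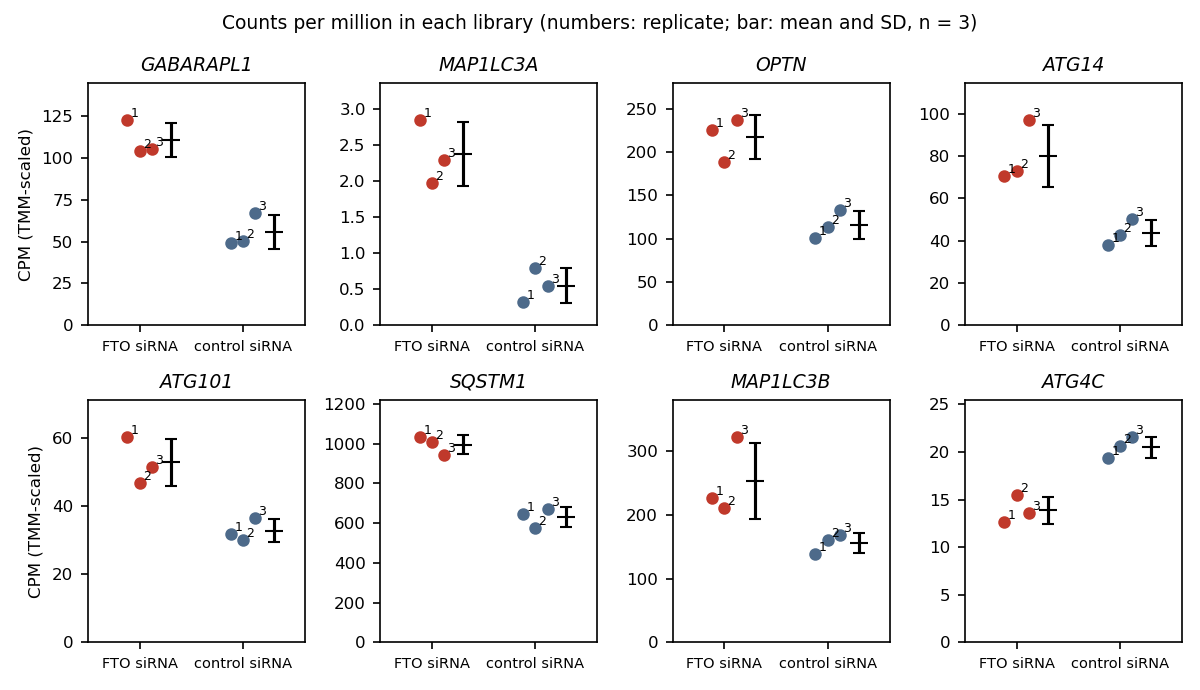
CPM (TMM-scaled) of the 7 called genes and ATG4C in each library, FTO siRNA in red and control siRNA in blue, with the replicate number beside each point and the mean and SD (n = 3) as bars. The groups do not overlap for any of the 8. These were picked by the smallest p-values of the same comparison, so the lack of overlap is no further support. Of all tested genes 19.2% had the FTO siRNA libraries wholly above the controls and 17.4% wholly below. FTO siRNA 3 is far above the other FTO siRNA libraries for MAP1LC3B, at 322 CPM, and ATG14, at 97.1 CPM.

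Of the MiT/TFE transcription factors, TFE3 and TFEB were tested and neither passed. TFE3 had 258.9, 240.0 and 220.6 CPM after FTO siRNA and 196.8, 190.3 and 205.3 CPM after control siRNA. The groups did not overlap (log2 fold change 0.28 ± 0.14, edgeR adjusted p = 0.221). TFEB had 3.66, 1.24 and 4.04 CPM after FTO siRNA and 1.08, 1.34 and 1.81 CPM after control siRNA; FTO siRNA 2 lay among the controls and the other 2 above them (edgeR adjusted p = 0.159). MITF, with 31 counts over the FTO siRNA libraries and 7 over the controls, fell under the filter and was not tested. LAMP1 had 308, 338.5 and 238 CPM after FTO siRNA and 231, 244.0 and 256 CPM after control siRNA, with FTO siRNA 3 among the controls (edgeR adjusted p = 0.321). LAMP2, the partner that chaperone-mediated autophagy also uses, had 167, 187 and 169 CPM after FTO siRNA and 152, 166 and 149.0 CPM after control siRNA, without overlap and without passing (edgeR adjusted p = 0.458).

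The calls rest on few libraries. Without control siRNA 1, 0 of the genes were called by edgeR (8 higher and 1 lower at an unadjusted p under 0.05), against 1.51% of all genes called higher and 0.602% called lower in that fit. Without control siRNA 2, MAP1LC3A alone of the 7 kept its call (1.84% of all genes called higher), and without control siRNA 3, ATG14, GABARAPL1 and OPTN did (3.23%). Without FTO siRNA 1, ATG101, SQSTM1 and MAP1LC3B lost theirs; without FTO siRNA 2, SQSTM1 and MAP1LC3B did, and TFEB was called higher. Without FTO siRNA 3, 11 were called higher and 3 lower, against 15.9% and 14.1% of all genes; WIPI2, ATG4D, TFE3 and LAMP1 joined the 7, and PIK3R4, ATG2B and ATG4C were lower. ATG2B, for example, then had a log2 fold change of -0.78 ± 0.21 (edgeR adjusted p = 0.0201). FTO siRNA 3 was the highest or lowest library for 18 of the 40 genes, against 57.9% of all tested genes. GABARAPL1, MAP1LC3A, OPTN and ATG14 kept their calls in 13 of 15 alternatives, SQSTM1 and ATG101 in 7 and MAP1LC3B in 2. MAP1LC3A passed the filter only through the FTO siRNA libraries, so the calls it kept under a filter are no support. Reads of near-identical or overlapping genes may enter some values: 6.88% of the 50-base words of MAP1LC3B and 2.59% of those of GABARAPL1 occur in other genes, and 22.04% of the exon bases of SQSTM1 and 19.2% of those of ATG101 overlap a gene on the opposite strand. The sources used here do not say whether the counting used strand, so reads of the opposite strand cannot be told apart.

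**Figure D4:**
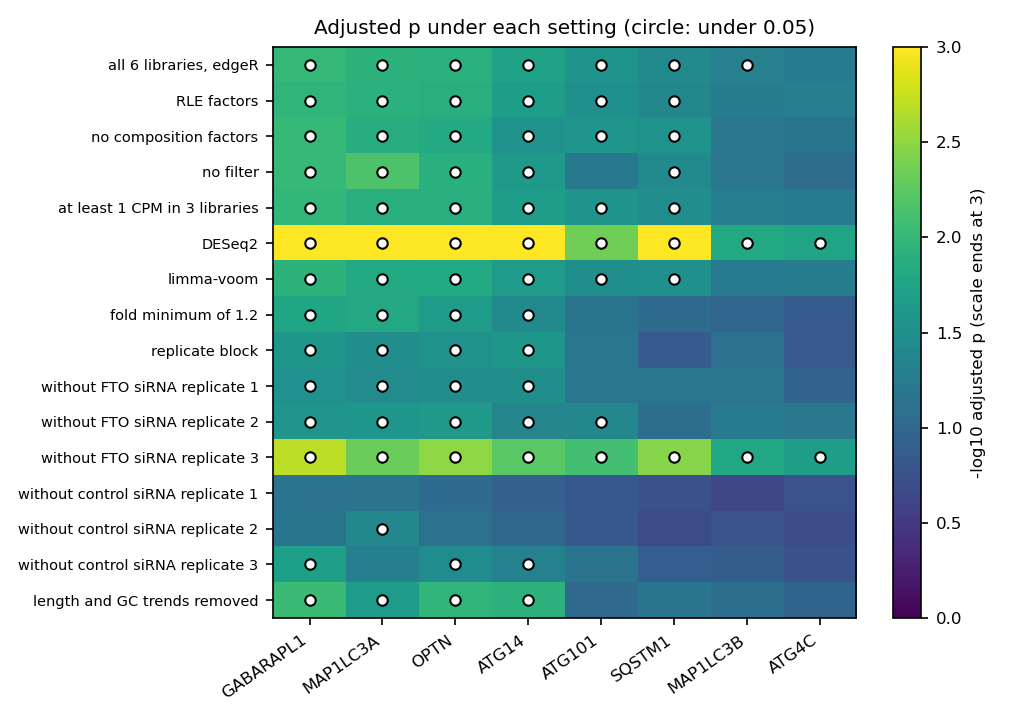
Adjusted p (colour, on the −log10 scale, which ends at 3) of the 7 called genes and ATG4C with all 6 libraries by edgeR and under each of the 15 alternatives, with a circle where it was under 0.05. The row without control siRNA 1 holds no circle, and MAP1LC3B keeps its circle under 2 alternatives.

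Other genes of the pathway were described in 7 lists of 142 genes, of which 137 were tested; 8 rose and 1 fell, against 7.53% and 3.83% of all tested genes, and the median log2 fold change was 0.16, against 0.04 over all tested genes. The kinase complex mTORC1 holds autophagy back when nutrients are plentiful, and its regulators listed here include inhibitors of it. Among mTORC1 and its lysosomal regulators 2 of 29 rose. SESN2, a stress-induced inhibitor of mTORC1, had 44.6, 42.3 and 72.2 CPM after FTO siRNA and 24.8, 20.8 and 20.1 CPM after control siRNA (log2 fold change 1.28 ± 0.23, edgeR adjusted p = 0.0120). RRAGC, a Rag GTPase that brings mTORC1 to lysosomes, had 24.5, 23.4 and 18.1 CPM after FTO siRNA and 10.3, 10.4 and 13.1 CPM after control siRNA (log2 fold change 0.96 ± 0.19, edgeR adjusted p = 0.0173). Both were without overlap. Of 10 AMPK subunits and upstream kinases 0 passed by edgeR (2 lower at an unadjusted p under 0.05; DESeq2 called 1 lower and limma-voom 0), and the lowest p-value was that of PRKAA1, the catalytic subunit α1, with 173, 245 and 263 CPM after FTO siRNA and 354, 375 and 335 CPM after control siRNA (edgeR adjusted p = 0.0577).

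Of 21 tested autophagy factors outside the 41 genes, 2 rose, where 7.53% of all tested genes did. ZFYVE1, which marks the membrane from which autophagosomes grow, had 23.4, 25.6 and 27.6 CPM after FTO siRNA and 12.1, 13.8 and 13.8 CPM after control siRNA (log2 fold change 0.95 ± 0.16, edgeR adjusted p = 0.00973). TP53INP2, which binds ATG8 proteins, had 61.97, 70.97 and 134.6 CPM after FTO siRNA and 37.8, 46.6 and 39.5 CPM after control siRNA, with FTO siRNA 3 the highest (edgeR adjusted p = 0.0392). Of 18 tested receptors for mitochondria, endoplasmic reticulum and ferritin 0 passed by edgeR (4 higher at an unadjusted p under 0.05; DESeq2 called 2 higher and limma-voom 0); the mitophagy receptor BNIP3L was nearest, with 47.4, 42.5 and 78.2 CPM after FTO siRNA and 37.1, 33.9 and 30.3 CPM after control siRNA (edgeR adjusted p = 0.0812). Of 15 fusion genes 1 rose, against the same 7.53% of all tested genes. That was RILP, an effector of RAB7 on late endosomes and lysosomes, with 8.68, 7.10 and 9.10 CPM after FTO siRNA and 4.12, 5.24 and 4.77 CPM after control siRNA (edgeR adjusted p = 0.0411).

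Of 17 subunits of the vacuolar ATPase, the proton pump of lysosomes, 1 fell, where 3.83% of all tested genes did. That was ATP6V1A, the catalytic subunit A, at 65.5, 83.7 and 72.2 CPM after FTO siRNA and 114.5, 117.6 and 109.1 CPM after control siRNA (log2 fold change -0.62 ± 0.14, edgeR adjusted p = 0.0279). Of 27 lysosomal hydrolases and membrane proteins 3 rose, where 7.53% of all tested genes did. Of the 27 log2 fold changes 24 were positive and the median was 0.34, against 53.5% positive and a median of 0.04 over all tested genes. SMPD1, the acid sphingomyelinase, had 49.9, 47.7 and 41.5 CPM after FTO siRNA and 24.3, 28.3 and 28.0 CPM after control siRNA (edgeR adjusted p = 0.0143). PPT1, a thioesterase, had 134, 135 and 109 CPM after FTO siRNA and 79.1, 79.0 and 76.9 CPM after control siRNA (edgeR adjusted p = 0.0191). CD63, a tetraspanin of late endosomes, had 908, 701 and 563 CPM after FTO siRNA and 422, 424 and 440.0 CPM after control siRNA (edgeR adjusted p = 0.0447). Each of the 9 called genes lost its call without control siRNA 1 and without control siRNA 2, and SESN2, TP53INP2, RILP, ATP6V1A, SMPD1, PPT1 and CD63 also without control siRNA 3. Without FTO siRNA 1 the call was lost for RRAGC, RILP, ATP6V1A and CD63, and without FTO siRNA 2 for RRAGC, TP53INP2, RILP, PPT1 and CD63. Without FTO siRNA 3 the calls grew in number, as they did over all genes (15.9% higher and 14.1% lower). In that fit 13 lysosomal hydrolases and membrane proteins were called higher and 1 lower, 8 mTORC1 genes higher and 3 lower, 6 fusion genes higher and 1 lower, and 6 vacuolar ATPase subunits higher and 1 lower. Of the other autophagy factors 4 were then higher and 1 lower, of the organelle receptors 1 higher and 1 lower, and of the AMPK list 3 lower.

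**Figure D5:**
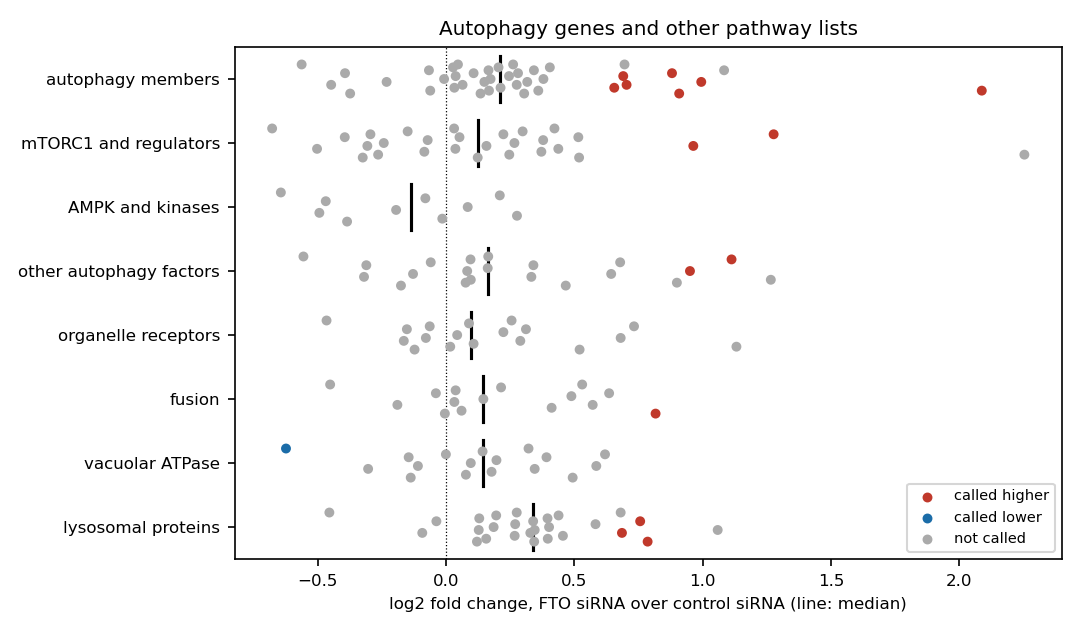
Log2 fold change (FTO siRNA over control siRNA) of each tested gene in the autophagy list and in the 7 other pathway lists, 1 point per gene, red where called higher, blue where called lower and grey where not called, with a line at each median. The lysosomal proteins have the highest median of the 7, at 0.34, and the AMPK list the lowest, at -0.14.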

How the data were processed

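RNA sequencing of HepG2 cells gave 3 libraries after FTO siRNA and 3 after control siRNA, grouped by the labels. The authors deposited raw counts per Ensembl gene, 1 table per library. Per the submitters' processing notes, the tools were TopHat2 2.0.11, TopHat and HTSeq and the builds GRCh37 and hg19, with no role or order. The sources used here do not give strand or the handling of reads that match several genes. Symbols, lengths and overlaps came from GENCODE 29, which matched 56753 of 60483 identifiers. Its build differs from those the submitters name, so no gene coordinates are given. Which build the counts rest on was not checked.

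The counts were tested with edgeR 4.0.16 in R 4.3.3: filterByExpr by group (at least 0.602 CPM in 3 libraries and a total of 15 counts), TMM, glmQLFit and glmQLFTest, two-sided, Benjamini-Hochberg over 15025 genes, threshold 0.05. The standard error is the log2 fold change over the square root of F. No library was a copy of another within sampling noise. The fit was also run on simulated counts with no library set apart. That run cannot show how the fit handles FTO siRNA 3, which stood apart here.

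Genes were named by a rule: FTO; members past the threshold, filled up to 8 by the smallest p-value; of each other list up to 4 past it, or the nearest 1. Values of the other members are given by role. The members and lists were chosen with earlier results of these data known. Alternatives were RLE and no composition factors, no filter, at least 1 CPM in 3 libraries, DESeq2 1.42.0, limma-voom (limma 3.58.1), a fold minimum of 1.2, a block for the replicate number, each library left out in turn and, chosen after seeing the data, length and GC trends removed (lowess, span 0.3).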

Additional observations from a re-analysis of the deposited data

How the results depend on the processing

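Over 15 alternatives no named gene changed direction, and the median log2 fold change of the autophagy genes stayed between 0.16 and 0.22. With no filter the median over all genes was 0.18, above the 0.16 of the autophagy genes, where it was 0.04 as reported. The count of autophagy genes called higher, 7 as reported, was 4 with a fold minimum of 1.2, 4 with the replicate block and 4 with length and GC trends removed; ATG14, MAP1LC3A, GABARAPL1 and OPTN were the 4 in each. The count called higher was 0 to 11 with 1 library left out. MAP1LC3A, which passed the filter only through the FTO siRNA libraries, is no support for any of these counts. The count called lower, 0 as reported by edgeR, was 1 with DESeq2 and 0 to 3 with 1 library left out. Over all genes, 1132 were called higher as reported, 736 with the replicate block and 236 to 2430 with 1 library left out; 575 were called lower as reported, 1027 with DESeq2, 315 with the fold minimum, 305 with the replicate block and 94 to 2152 with 1 library left out. The cause was not tested. For the 7 other lists, the counts in each direction under each alternative gave 210 comparisons with the reported counts. In 58 of them the count changed by more than 1.5 times, or to or from 0. Same-numbered libraries did not deviate together (correlations of -0.138, -0.064 and -0.248), so the numbers were not taken to pair the libraries. Depth limits MAP1LC3A, ULK2, TFEB, GABARAP and MITF, all listed under 5 CPM. The low level listed for GABARAP is also uncertain because its exons overlap other annotated genes.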

Other observations

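Some stress-responsive and lysosomal genes outside the 41, picked after their values were seen, were far from the other libraries in FTO siRNA 3 alone. DDIT4, an mTORC1 inhibitor induced by stress, had 3.904, 5.19 and 25.3 CPM in FTO siRNA libraries 1, 2 and 3, against 2.79, 2.25 and 2.23 CPM in control siRNA libraries (edgeR adjusted p = 0.0698). TP53INP1, a p53 target that binds ATG8 proteins, had 9.30, 14.4 and 40.2 CPM after FTO siRNA and 9.57, 11.2 and 5.92 CPM after control siRNA. The vacuolar ATPase subunit ATP6V0D1 went the other way in that library, with 136.6, 128.3 and 53.4 CPM after FTO siRNA and 101.3, 101.3 and 115.8 CPM after control siRNA. FTO siRNA 3 was the lowest library for 10 of the 17 vacuolar ATPase subunits and the highest for 0, against 28.05% and 29.87% of all tested genes.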
